A study of Schmidtea mediterranea with 6 samples.

Results

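In the stem cell fraction of the planarian Schmidtea mediterranea, 61 genes are described here that had at most 50% of their control level once Smed-exoc3 had been depleted. They were chosen from 30917 gene models by their measured values, with a minimum control level and with some genes set aside by name. Counts were expressed as CPM (reads of a gene per 1000000 reads assigned to genes in the same library), and a gene was taken when its mean in gfp(RNAi) libraries was at least 5 CPM, its mean in exoc3(RNAi) libraries was at most 50% of that mean, and its highest exoc3(RNAi) value lay below its lowest gfp(RNAi) value. Of 9157 genes at or above 5 CPM, 73 met these conditions (0.797%). The choice set aside 16 genes by name, among them Smed-exoc3 itself, odc-1 and genes of the epidermal lineage, and 12 of these were among the 73. Because this contrast selected the 61 genes, their differences are given as descriptions, without a test.

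X1 cells are the fraction that flow cytometry of dissociated planarians yields when cells with more than the basal DNA content are gated. They are proliferating and sensitive to irradiation, and they hold the neoblasts, the stem cells from which all differentiated cells of the animal arise. Exoc3 is a subunit of the exocyst, a complex that tethers secretory vesicles to the plasma membrane. Double-stranded RNA (dsRNA) injected into planarians silences the matching transcript throughout the body, so the cells compared here came from animals in which every tissue was exposed to the dsRNA.

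Animals of 5 to 5.5 mm in length were injected with dsRNA against Smed-exoc3, written exoc3(RNAi), or as a control with dsRNA against gfp, written gfp(RNAi), a sequence that planarians lack. Both groups were starved before the injections and received them on 3 consecutive days, with a second round that followed the first by 12 days. A single dsRNA was used against Smed-exoc3, and its template was amplified with the forward oligo below, shown because the depletion in all exoc3(RNAi) animals rests on this one fragment.
Smed-exoc3 template, forward oligo: tcacgagcagataagtgact
X1 cells were then sorted and their mRNA was sequenced, with 3 libraries per group that the study called biological replicates.

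The exoc3(RNAi) libraries held 28897363 to 37525894 assigned reads, and the gfp(RNAi) libraries held 31390710 to 33805416. Smed-exoc3 (SMESG000022604.1) had 32.3, 31.7 and 43.5 CPM in exoc3(RNAi) libraries, against 68.4, 72.9 and 71.6 CPM in gfp(RNAi) libraries, so that replicate 3 of exoc3(RNAi) kept more of the targeted transcript than the other two. Defining neoblast genes were well expressed in all libraries. The summed level of 5 of them (smedwi-2, smedwi-3, vasa-1, cyclin B and RNRL) was 8743 to 9545 CPM in exoc3(RNAi) and 11019 to 11178 CPM in gfp(RNAi), with 4 called lower and 1 called higher. Markers of other cells, like the neoblast genes, came from the study's annotation. It covers mainly genes that ranked first in the study's own test. The changes of these markers are thus descriptions, not independent evidence on cell composition. In the list of 20 epidermal progenitor genes that the study chose on these samples, all 20 were lower, with sums of 1564 to 1601 CPM in exoc3(RNAi) and 3031 to 3086 CPM in gfp(RNAi), and none of the 20 is among the 61 genes, since the choice set 12 of them aside by name and the other 8 did not meet its conditions. The sums were 29.1 to 31.8 against 43.0 to 43.8 CPM for 3 gut genes (3 lower, none higher), 287 to 301 against 334 to 342 CPM for 4 muscle genes (3 lower, 1 higher), 2292 to 2392 against 1792 to 1947 CPM for 7 neural genes (3 lower, 4 higher) and 58.3 to 65.8 against 30.2 to 33.5 CPM for 4 genes of cathepsin-expressing cells (none lower, 4 higher), each pair with exoc3(RNAi) first. No marker was at 0 in all libraries. These calls are from edgeR's quasi-likelihood test at an adjusted p under 0.05, in which 27.1% of 14700 genes were called lower and 25.8% higher. Of the 1805 annotated genes tested, 1224 were called lower and 577 higher. The part of a changed cell composition in the levels of the 61 genes was not tested, and in bulk RNA fewer cells of a type cannot be told apart from less RNA per cell.

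The 61 genes together took up 1179, 1171 and 1112 CPM in the exoc3(RNAi) libraries, against 2632, 2608 and 2614 CPM in the gfp(RNAi) libraries. The groups did not overlap, which the choice required of each gene. The sum in exoc3(RNAi), 1154 ± 36.4 CPM, was 44.1% of the 2618 ± 12.5 CPM in gfp(RNAi) (SD, n = 3 each). A single gene of unknown function, SMESG000072154.1, contributed 26.4 to 27.4% of the sum in exoc3(RNAi) and 27.8 to 28.2% in gfp(RNAi), and without it 44.6% of the control level remained. Single genes kept between 22.4% and 49.9% of their control level, with a median of 44.5%, so that most lay close to the limit of the choice. In 13 of the 61 at most 40% remained. The fitted log2 fold changes, on the edgeR scale, ran from -2.22 to -1.05 with a median of -1.22, beside a median of 0.02 over all 14700 genes tested. All 61 were called lower by edgeR (27.1% of all genes were), as the choice all but fixed. Every exoc3(RNAi) library below every gfp(RNAi) library was the case in 35.3% of the 9157 genes at or above 5 CPM, and no gene at or under 50% of its control level failed this condition alone.

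**Figure D1:**
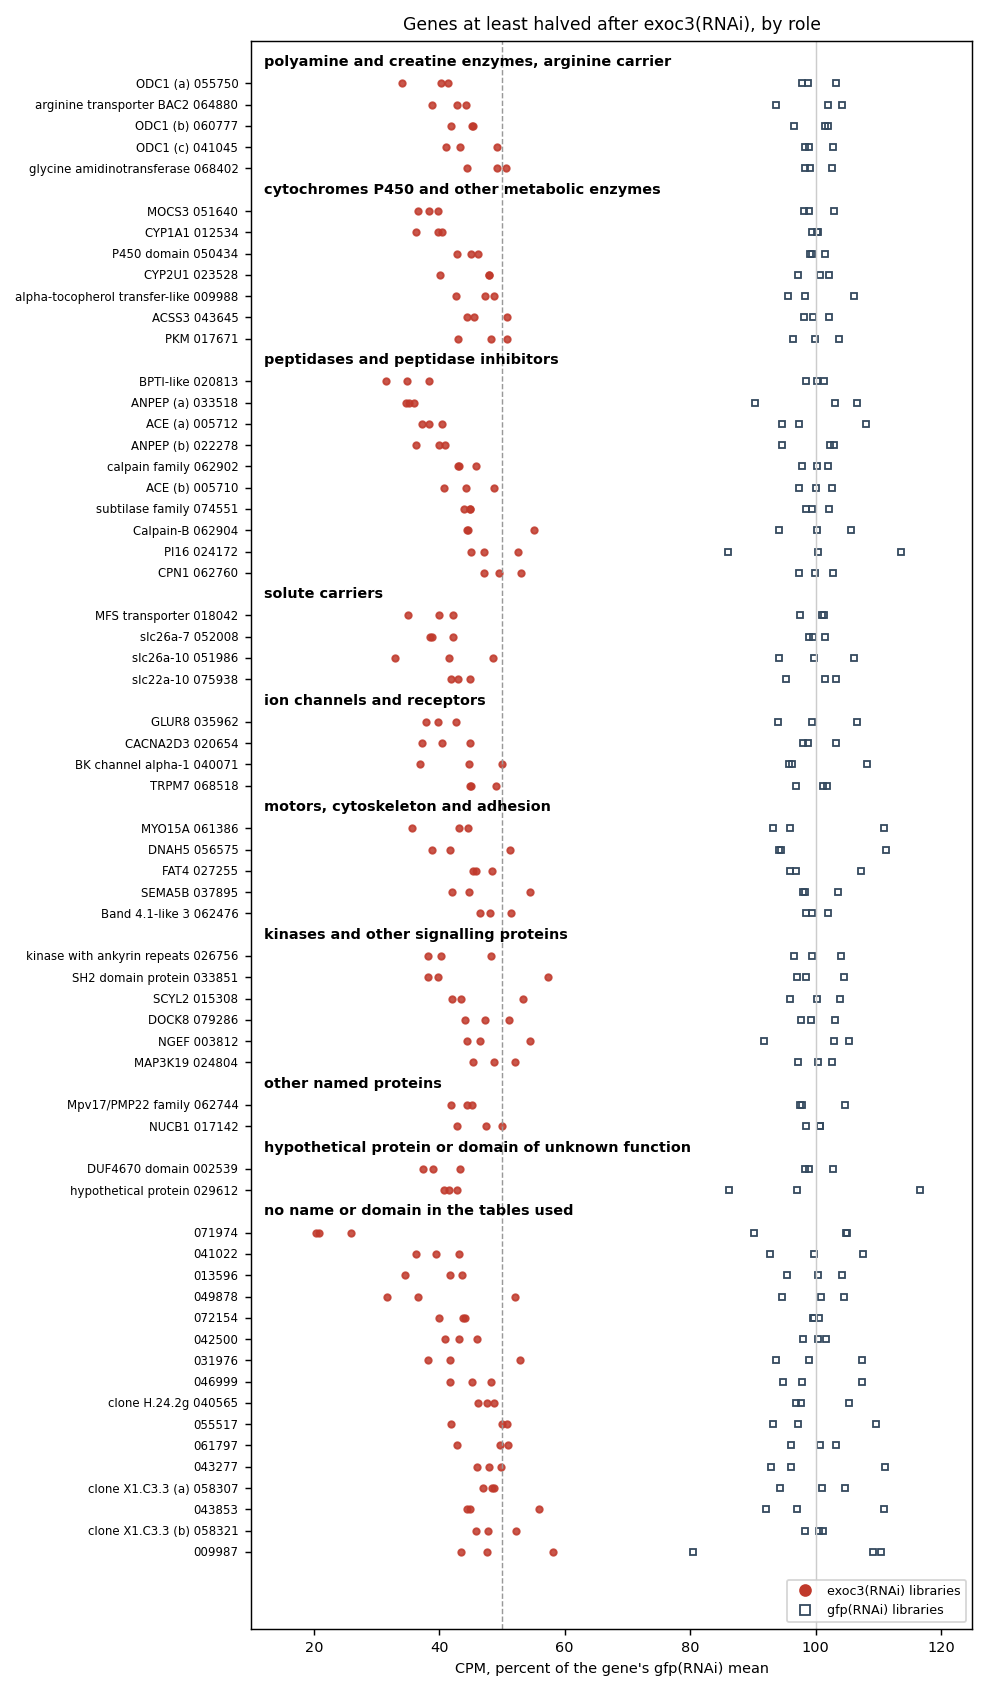
CPM of each library as a percentage of the gene's gfp(RNAi) mean for the 61 genes, grouped by role (filled circles, 3 exoc3(RNAi) libraries; open squares, 3 gfp(RNAi) libraries; dashed line, 50%; numbers are the digits of the gene identifier). The 2 clouds do not overlap for any gene, as the choice required, and SMESG000071974.1, at 22.4%, stands furthest to the left.

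Most of these genes were expressed at a low to moderate level in control X1 cells. Their gfp(RNAi) means ran from 5.23 to 732 CPM with a median of 20.7 CPM, beside a median of 31.6 CPM over the 9157 genes. Below 10 CPM lay 13 of them, and at or above 100 CPM only 2. Read numbers behind a value ranged from 41 to 12118 in exoc3(RNAi) libraries and from 154 to 24901 in gfp(RNAi) libraries. The coefficient of variation had a median of 7.47% among exoc3(RNAi) libraries and 3.94% among gfp(RNAi) libraries for the 61 genes, beside 4.22% and 3.33% over the 9157 genes.

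**Figure D2:**
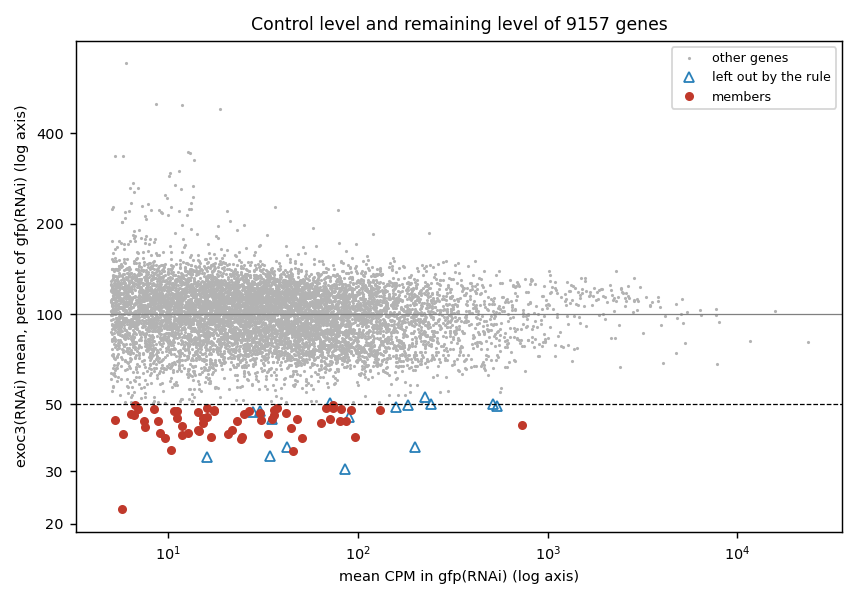
Mean exoc3(RNAi) level as a percentage of the gfp(RNAi) mean (vertical, log axis) against the gfp(RNAi) mean in CPM (horizontal, log axis) for the 9157 genes at or above 5 CPM. The 61 genes (red) lie at or under the dashed line at 50%, together with 12 of the 16 genes set aside by name (triangles).

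Names, descriptions and domains came from the annotation that the study paired with its gene identifiers. The tables used here, one of them shortened, covered 2057 of the 30917 gene models, mainly genes that ranked first in the study's own test, and 67.8% of the annotated genes tested were called lower. Of the 61 genes 59 were in these tables and 45 had a name, a description or a conserved domain. They fell into enzymes of arginine use, cytochromes P450 and other metabolic enzymes, peptidases and their inhibitors, solute carriers, ion channels, cytoskeletal and adhesion proteins, and kinases and other signalling proteins. The names rest on similarity to proteins of other animals, and the functions given below are those of the named proteins in vertebrates or other model organisms.

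Enzymes that use arginine and ornithine formed a group with 5 members. Ornithine decarboxylase makes putrescine from ornithine, the first step of polyamine synthesis, and 3 gene models carry its name. The most reduced of them, SMESG000055750.1, had 20.4, 21.0 and 17.3 CPM in exoc3(RNAi), against 50.3, 49.7 and 52.5 CPM in gfp(RNAi), so 38.6% of the control level remained (log2 fold change -1.43, SE 0.07). SMESG000060777.1, the most abundant of the 3, had 36.3, 36.4 and 33.5 CPM in exoc3(RNAi) and 77.4, 81.4 and 81.8 CPM in gfp(RNAi), which left 44.2%. For SMESG000041045.1 the values were 15.2, 13.4 and 12.7 CPM in exoc3(RNAi) and 30.6, 30.4 and 31.8 CPM in gfp(RNAi), which left 44.5%. All 3 were thus lowest in replicate 3 of exoc3(RNAi). The other gene annotated as an ornithine decarboxylase, odc-1 (SMESG000062429.1), was set aside by the choice and kept 47.3%. The study used odc-1 as a marker of differentiating cells of the epidermal lineage. Whether the levels of this group of enzymes followed the number of such cells was not tested. Glycine amidinotransferase transfers the amidino group of arginine to glycine in the synthesis of creatine. Its gene model SMESG000068402.1 had 40, 41.1 and 36.1 CPM in exoc3(RNAi), against 80.3, 79.8 and 83.2 CPM in gfp(RNAi), or 48.1%. More abundant genes with the same annotation, SMESG000051953.1 and SMESG000051964.1, were set aside by the choice. The first had 269, 269 and 266 CPM in exoc3(RNAi) and 546, 546 and 532 CPM in gfp(RNAi), or 49.5%, and the second kept 50.1%. A further gene annotated as this enzyme, GATM (SMESG000043142.1), lay outside the choice with 39.8, 41.0 and 39.4 CPM in exoc3(RNAi) and 69.2, 70.3 and 70.4 CPM in gfp(RNAi), lower by edgeR at an adjusted p of 3.26e-09 (log2 fold change -0.86 ± 0.04, SE). A carrier annotated as the mitochondrial arginine transporter BAC2 of plants (SMESG000064880.1), a protein that moves arginine across the inner mitochondrial membrane, had 3.25, 3.36 and 2.94 CPM in exoc3(RNAi) and 7.73, 7.90 and 7.10 CPM in gfp(RNAi), or 42.0%. The list of arginine, creatine and polyamine genes held 10 annotated genes, and all 10 were called lower (67.8% of all annotated genes were), but 5 of them are among the 61 genes and 3 more were set aside by name. The other 2 were GATM and CAD (SMESG000012911.1), an enzyme of pyrimidine synthesis, which fell by 0.42 on the log2 scale. Reads that aligned to more than 1 gene were not counted by the authors, so the values of close copies within this group are uncertain.

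Cytochromes P450 are haem-containing monooxygenases that oxidise lipids, steroids and foreign compounds. The annotation used here named 3 genes with a P450 domain, all among the 61, and as it covers only part of the gene models it may not hold the whole family. The gene named CYP1A1 (SMESG000012534.1) had 38.5, 39.1 and 35.0 CPM in exoc3(RNAi), against 97.0, 96.1 and 96.9 CPM in gfp(RNAi), and kept 38.8% (log2 fold change -1.42, SE 0.05). A second one without a name (SMESG000050434.1) had 32, 32.8 and 30.4 CPM in exoc3(RNAi) and 70.6, 70.4 and 72.1 CPM in gfp(RNAi), or 44.7%. CYP2U1 (SMESG000023528.1), in mammals a hydroxylase of long-chain fatty acids, was the least abundant, at 7.67, 7.68 and 6.41 CPM in exoc3(RNAi) and 15.6, 16.3 and 16.1 CPM in gfp(RNAi), or 45.3%. The control libraries differed little for these genes, and replicate 3 of exoc3(RNAi) was again the lowest for all 3.

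**Figure D3:**
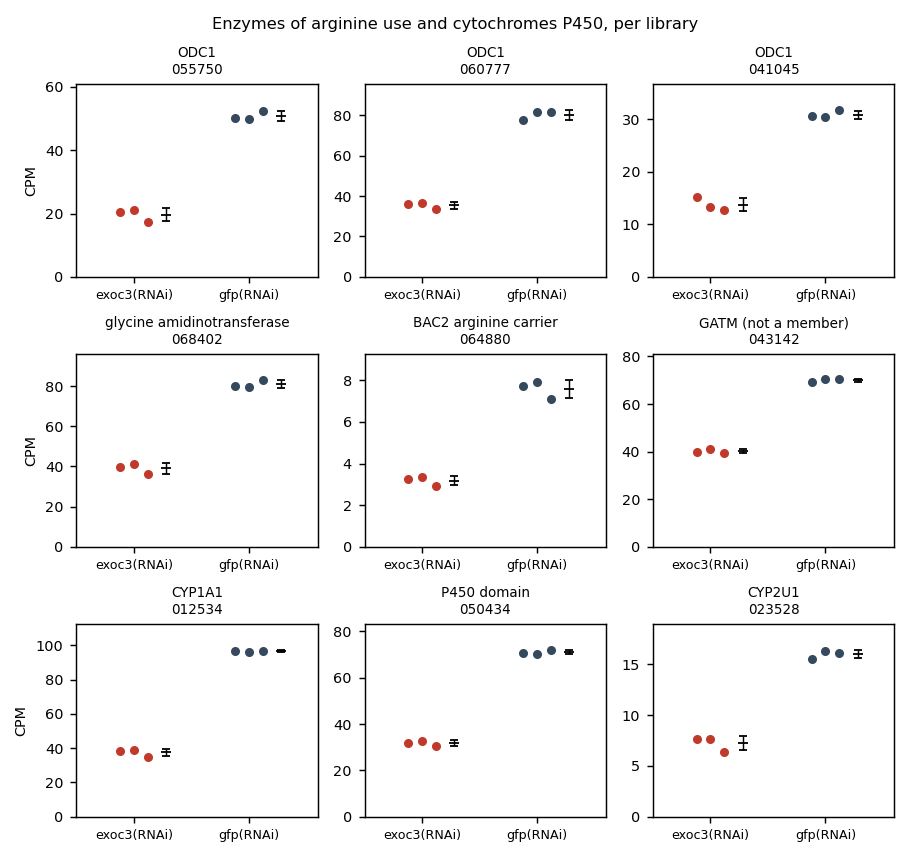
CPM per library (points) with mean and SD (bars) in exoc3(RNAi) and gfp(RNAi) for 5 genes of arginine use, the GATM gene that lay outside the choice, and the 3 cytochromes P450. Each panel starts at 0. The groups are apart in every panel, as the choice required of all but GATM. GATM lies at 39.4 to 41.0 CPM in exoc3(RNAi) and 69.2 to 70.4 CPM in gfp(RNAi).

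A further 4 genes of metabolism were among the 61. MOCS3 (SMESG000051640.1), which activates sulfur carrier proteins in the synthesis of the molybdenum cofactor, had 9.30, 9.65 and 8.89 CPM in exoc3(RNAi), against 24.9, 23.8 and 24 CPM in gfp(RNAi), and with 38.3% remaining it was the lowest of the metabolic genes. PKM (SMESG000017671.1), the pyruvate kinase that ends glycolysis, kept 47.4%, with 8.42, 8.86 and 7.49 CPM in exoc3(RNAi) and 16.8, 17.4 and 18.1 CPM in gfp(RNAi). ACSS3 (SMESG000043645.1) activates short-chain fatty acids to their CoA esters, and it kept 47.0%. A protein with the lipid-binding CRAL/TRIO fold, annotated as similar to alpha-tocopherol transfer protein (SMESG000009988.1), a carrier of vitamin E, kept 46.2%, with 17.7, 17.1 and 15.5 CPM in exoc3(RNAi) and 35.6, 38.5 and 34.7 CPM in gfp(RNAi).

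Peptidases and peptidase inhibitors were the most numerous role among the named genes, with 10 members. The lowest of these was a gene with a BPTI-like domain (SMESG000020813.1), the fold of Kunitz-type inhibitors of serine proteases. It had 15.8, 17.4 and 14.4 CPM in exoc3(RNAi), against 44.8, 45.6 and 46.1 CPM in gfp(RNAi), so 34.9% remained (log2 fold change -1.57, SE 0.06), the second lowest share of all 61 genes. Both gene models named ANPEP, after the membrane aminopeptidase N that trims amino acids from the end of peptides, were close to it. SMESG000033518.1 had 3.6, 3.63 and 3.73 CPM in exoc3(RNAi) and 9.34, 10.7 and 11.0 CPM in gfp(RNAi), or 35.3%. SMESG000022278.1 had 6.90, 6.75 and 6.12 CPM in exoc3(RNAi) and 17.3, 17.4 and 16 CPM in gfp(RNAi), or 39.0%. These gene models were matched to the same published planarian transcript, so they may be parts of 1 gene and are not independent. ACE, the peptidyl dipeptidase known in vertebrates for activating angiotensin, also names a pair. SMESG000005712.1 had 3.7, 3.6 and 3.91 CPM in exoc3(RNAi), against 9.41, 10.4 and 9.14 CPM in gfp(RNAi), or 38.7%, and the more abundant SMESG000005710.1 had 17.1, 15.5 and 14.3 CPM in exoc3(RNAi), against 36.0, 35.1 and 34.2 CPM in gfp(RNAi), or 44.6%.

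Calpains are cytosolic cysteine proteases that calcium activates. The calpain family gene SMESG000062902.1, among the 5 most abundant of the 61 genes, had 37.5, 37.4 and 39.9 CPM in exoc3(RNAi), against 85.1, 88.7 and 87.1 CPM in gfp(RNAi), or 44.0%. Calpain-B (SMESG000062904.1) had 7.78, 7.75 and 9.62 CPM in exoc3(RNAi) and 18.4, 16.4 and 17.5 CPM in gfp(RNAi), or 48.1%, with replicate 3 of exoc3(RNAi) the highest. A subtilase with a proprotein convertase domain (SMESG000074551.1), from the family that cleaves prohormones, had 21.5, 21.5 and 21.0 CPM in exoc3(RNAi) and 47.5, 48.8 and 47.0 CPM in gfp(RNAi), or 44.6%, and its libraries hardly differed within either group. CPN1 (SMESG000062760.1), named after a carboxypeptidase that removes basic residues, had 36.8, 39.4 and 35.1 CPM in exoc3(RNAi) and 74.3, 76.4 and 72.4 CPM in gfp(RNAi), or 49.9%, the highest share of the 61 genes. PI16 (SMESG000024172.1), a peptidase inhibitor, had 3.12, 3.63 and 3.26 CPM in exoc3(RNAi) and 7.85, 6.94 and 5.95 CPM in gfp(RNAi), or 48.3%.

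Solute carriers and ion channels were represented by 4 genes each, in addition to the arginine carrier. Carriers of the SLC26 family exchange anions such as chloride, bicarbonate and sulfate across membranes. The gene published as slc26a-7 (SMESG000052008.1) had 8.71, 7.96 and 8.04 CPM in exoc3(RNAi), against 20.6, 20.5 and 21.0 CPM in gfp(RNAi), or 39.9%. For slc26a-10 (SMESG000051986.1), annotated as prestin, the exoc3(RNAi) libraries were more spread, with 10.6, 9.03 and 7.17 CPM, against 21.7, 23.1 and 20.5 CPM in gfp(RNAi), or 41.0%. A transporter of the major facilitator superfamily without a name (SMESG000018042.1) kept 39.0%, with 9.78, 10.3 and 8.57 CPM in exoc3(RNAi) and 23.9, 24.8 and 24.8 CPM in gfp(RNAi), and slc22a-10 (SMESG000075938.1), of the family of organic ion transporters, kept 43.2%. The groups did not overlap for any of the 4, as the choice required.

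Among channels and receptors, GLUR8 (SMESG000035962.1), a glutamate receptor, had 5.41, 5.05 and 4.81 CPM in exoc3(RNAi), against 12.6, 13.5 and 11.9 CPM in gfp(RNAi), or 40.2%. CACNA2D3 (SMESG000020654.1), an auxiliary subunit that brings voltage-gated calcium channels to the membrane, had 6.5, 5.4 and 5.86 CPM in exoc3(RNAi) and 14.2, 14.9 and 14.3 CPM in gfp(RNAi), or 40.9%. The alpha-1 subunit of a calcium-activated potassium channel (SMESG000040071.1) kept 43.9% and a gene annotated as TRPM7, in which only ankyrin repeats were found (SMESG000068518.1), kept 46.3%. These genes were scarce in X1 cells, with gfp(RNAi) means of 6.35 to 14.5 CPM.

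Of the genes of motors, cytoskeleton and adhesion, MYO15A (SMESG000061386.1), an unconventional myosin found in vertebrates at the tips of actin bundles, was the lowest. It had 5.12, 6.40 and 6.18 CPM in exoc3(RNAi), against 13.8, 15.9 and 13.4 CPM in gfp(RNAi), or 41.1%. DNAH5 (SMESG000056575.1), a heavy chain of the dynein that moves cilia, had 3.84, 2.91 and 3.12 CPM in exoc3(RNAi) and 7.06, 8.31 and 7.04 CPM in gfp(RNAi), or 44.0%. Band 4.1-like protein 3 (SMESG000062476.1), which links membrane proteins to spectrin and actin, was the most abundant of them, with 37.8, 34.2 and 35.4 CPM in exoc3(RNAi) and 75.0, 72.4 and 73.2 CPM in gfp(RNAi), or 48.7%. The atypical cadherin FAT4 (SMESG000027255.1), which in vertebrates and flies acts in planar polarity, kept 46.5%, with 11.4, 11.5 and 12.2 CPM in exoc3(RNAi) and 24.4, 27.0 and 24.1 CPM in gfp(RNAi). The semaphorin SEMA5B (SMESG000037895.1), of a family of axon guidance cues, kept 47.1%. In this role replicate 3 of exoc3(RNAi) was the lowest for none of the 5 genes.

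Kinases and other signalling proteins accounted for 6 genes. A protein kinase with ankyrin repeats (SMESG000026756.1) had 4.53, 4.78 and 5.71 CPM in exoc3(RNAi), against 11.8, 12.3 and 11.4 CPM in gfp(RNAi), or 42.2%, and was the lowest of the 6. A protein with an SH2 domain, which binds phosphorylated tyrosines (SMESG000033851.1), had 6.05, 5.81 and 8.71 CPM in exoc3(RNAi) and 15.0, 15.9 and 14.8 CPM in gfp(RNAi), or 45.1%. Its exoc3(RNAi) replicate 3 was thus well above the other two, yet below all controls, as the choice required. SCYL2 (SMESG000015308.1), a pseudokinase of clathrin-coated vesicles, kept 46.3%, with 3.52, 2.87 and 2.77 CPM in exoc3(RNAi) and 6.61, 6.85 and 6.33 CPM in gfp(RNAi). The guanine nucleotide exchange factors DOCK8 (SMESG000079286.1) and NGEF (SMESG000003812.1) kept 47.5% and 48.5%. MAP3K19 (SMESG000024804.1), a kinase upstream of MAP kinases, had 33.0, 30.7 and 35.2 CPM in exoc3(RNAi) and 65.7, 69.4 and 67.9 CPM in gfp(RNAi), or 48.7%.

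A pair of named genes fitted none of these roles. NUCB1 (SMESG000017142.1), nucleobindin, a calcium-binding protein of the Golgi, had 17.8, 19.7 and 20.8 CPM in exoc3(RNAi), against 41.9, 41.9 and 40.9 CPM in gfp(RNAi), or 46.8%. A membrane protein of the Mpv17/PMP22 family (SMESG000062744.1) kept 43.9%, with gfp(RNAi) at 22.5, 24.1 and 22.6 CPM. A gene with a DUF4670 domain (SMESG000002539.1) kept 39.9% and one described only as a hypothetical protein (SMESG000029612.1) kept 41.7%. For the last the controls were spread, with 18.5, 19.1 and 18.2 CPM in exoc3(RNAi) and 52.0, 38.4 and 43.3 CPM in gfp(RNAi).

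For the remaining 16 genes the tables gave neither a name nor a domain, and 2 of these, SMESG000031976.1 and SMESG000009987.1, were not in the part of the tables used. The lowest share, 22.4%, belonged to SMESG000071974.1, with 1.17, 1.49 and 1.19 CPM in exoc3(RNAi) and 6.03, 6.02 and 5.18 CPM in gfp(RNAi) (log2 fold change -2.22, SE 0.14). The next lowest share among the 61 genes was 34.9%. Its control level was close to the 5 CPM that the choice required, and its exoc3(RNAi) values rested on 44, 43 and 41 reads. The most abundant gene, SMESG000072154.1, had 323, 320 and 293 CPM in exoc3(RNAi), against 731, 729 and 737 CPM in gfp(RNAi), or 42.6%. Next in abundance was SMESG000043277.1, with 65.3, 62.9 and 60.3 CPM in exoc3(RNAi) and 146, 122 and 126 CPM in gfp(RNAi), or 47.9%. A pair of gene models, SMESG000058307.1 and SMESG000058321.1, was matched to the published clone X1.C3.3 and may not be independent. The first had 44.4, 43.2 and 44.7 CPM in exoc3(RNAi) and 96.0, 86.6 and 92.6 CPM in gfp(RNAi), or 48.1%, and the second kept 48.6%. SMESG000041022.1 completed the 10 lowest shares, at 39.6%, with 5.09, 4.67 and 4.28 CPM in exoc3(RNAi) and 12.7, 11.0 and 11.8 CPM in gfp(RNAi).

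Near the limit of 50% the choice separated genes with nearly the same values. Just inside lay CPN1 at 49.9%, SMESG000009987.1 at 49.7% and Band 4.1-like protein 3 at 48.7%. SMESG000009987.1 had 3.89, 3.18 and 2.91 CPM in exoc3(RNAi) and 5.39, 7.39 and 7.31 CPM in gfp(RNAi), the narrowest gap of all 61 genes, as its lowest control was 1.38 times its highest exoc3(RNAi) value. In the other 60 genes this ratio was at least 1.5. Just outside lay SMESG000058274.1 at 50.4%, SMESG000020112.1 at 50.7% and SMESG000043280.1 at 50.8%. The last of these had 49.2, 47.9 and 46.5 CPM in exoc3(RNAi) and 101, 89.4 and 92.5 CPM in gfp(RNAi). There were 40 such genes between 50% and 55%.

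Genes that carry the name of a member did not all fall as far. Members of shared name, such as those of ODC1, ANPEP and ACE, are described above. For an unchosen gene at or above 5 CPM, a smaller fall than in the member was all but fixed by the choice. Apart from the genes set aside by name, the annotation held 7 further genes that share the symbol or description of a member but were not chosen. Of these 6 were called lower, beside 67.8% of all annotated genes, and 1 higher. A second GLUR8 gene (SMESG000065907.1) had 6.40, 6.61 and 7.17 CPM in exoc3(RNAi) and 13.9, 12.6 and 12.0 CPM in gfp(RNAi), lower by edgeR at an adjusted p of 5.89e-07 (log2 fold change -0.99 ± 0.08, SE). A second Band 4.1-like protein 3 (SMESG000019493.1), with 117, 115 and 110 CPM in exoc3(RNAi) and 138, 139 and 138 CPM in gfp(RNAi), fell by 0.33 on the log2 scale (adjusted p = 4.95e-06, edgeR). The other calpain-B gene (SMESG000039299.1) was expressed far more strongly than the member, with 176, 178 and 187 CPM in exoc3(RNAi) and 197, 199 and 195 CPM in gfp(RNAi), and fell by 0.18 on the log2 scale (adjusted p = 0.00035, edgeR). The ACSS3 genes moved in opposite directions. The member SMESG000043645.1 had 15.4, 13.5 and 13.8 CPM in exoc3(RNAi) and 29.8, 31.0 and 30.3 CPM in gfp(RNAi). SMESG000043646.1 had 5.41, 5.50 and 5.95 CPM in exoc3(RNAi), against 1.64, 1.21 and 1.45 CPM in gfp(RNAi), higher by edgeR at an adjusted p of 9.81e-08 (log2 fold change 1.91 ± 0.13, SE). The difference between the members of these pairs was not tested, since the choice fixed the value of one of them.

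**Figure D4:**
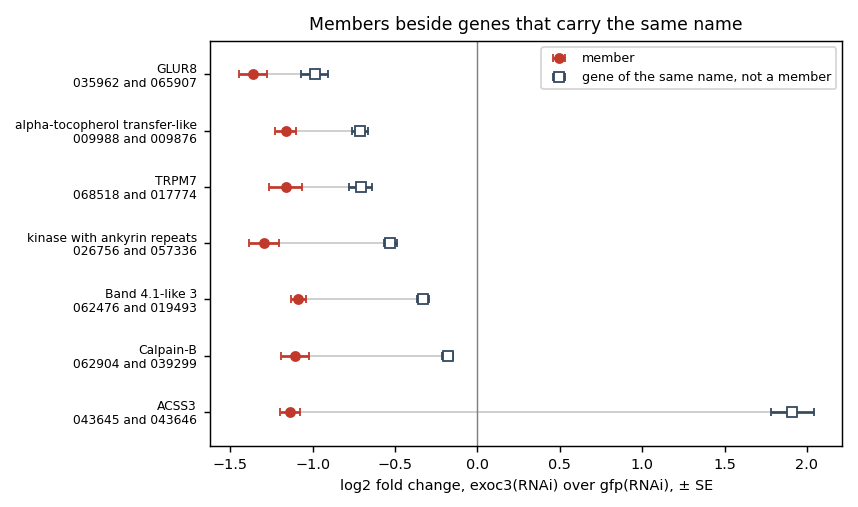
Log2 fold change of exoc3(RNAi) over gfp(RNAi) (horizontal, with SE) for 7 of the 61 genes (filled circles) and for a gene of the same name that was not chosen (open squares). The unchosen gene is nearer 0 in the upper 6 pairs, as the choice all but fixed, and for ACSS3 it lies at 1.91.

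The wider families were read from the annotation, which covers mainly genes that ranked first in the study's own test. Of 1805 annotated genes tested, 1224 (67.8%) were called lower and 577 higher, with a median log2 fold change of -0.36, so the counts that follow are a description of this annotation and stand beside that excess of lower genes. Among 34 peptidases and inhibitors 22 were lower and 12 higher. The choice had taken out 10 of them, all lower, and the 24 outside the 61 genes had 12 lower and 12 higher (median -0.03). The largest changes in them were increases, but the choice had taken out the larger falls at or above 5 CPM. Cathepsin A (CTSA, SMESG000029163.1), a lysosomal carboxypeptidase with close copies whose reads may not be told apart, rose by 2.37 on the log2 scale. Its gfp(RNAi) mean was 0.93 CPM. A Kunitz-domain gene (SMESG000009888.1) rose by 1.96 and an astacin metalloprotease (SMESG000074510.1) by 1.87, at gfp(RNAi) means of 4.28 and 1.17 CPM. The Kunitz-domain gene had 16.9, 16.5 and 18.5 CPM in exoc3(RNAi) and 4.35, 4.43 and 4.05 CPM in gfp(RNAi), while the member with a BPTI-like domain was the second lowest of the 61 genes.

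Solute carriers numbered 33, with 23 lower and 10 higher, and the 28 outside the 61 genes had 18 lower and 10 higher (median -0.34). Outside the 61 genes the glucose transporter SLC2A1 (SMESG000072446.1) rose, with 10.2, 9.79 and 11.5 CPM in exoc3(RNAi) and 1.8, 2.2 and 1.95 CPM in gfp(RNAi), a log2 fold change of 2.35. A major facilitator gene (SMESG000076465.1) had a log2 fold change of 3.08 at 1.55, 2.04 and 2.42 CPM in exoc3(RNAi) and 0.122, 0.223 and 0.325 CPM in gfp(RNAi). For slc23a-1 (SMESG000066904.1) it was 1.81, at a gfp(RNAi) mean of 1.41 CPM. Of 35 ion channels and receptors 26 were lower and 9 higher, and the 31 outside the 61 genes had 22 lower and 9 higher (median -0.40). The largest changes outside the 61 genes were again increases, but the choice had taken out the larger falls at or above 5 CPM. The endolysosomal cation channels TPCN2 (SMESG000058852.1) and TRPML (SMESG000015162.1) rose by 1.5 and 1.17, at gfp(RNAi) means of 3.41 and 2.88 CPM. A voltage-activated channel (SMESG000036524.1) rose by 1.29, at a gfp(RNAi) mean of 0.99 CPM.

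Among 36 myosins and actin regulators 26 were lower and 10 higher, and the 34 outside the 61 genes had 24 lower and 10 higher (median -0.42). MYO6 (SMESG000047361.1), a myosin that moves towards the minus end of actin filaments, was just outside the choice, with 12.5, 12.7 and 13.3 CPM in exoc3(RNAi) and 24.9, 25.0 and 24.6 CPM in gfp(RNAi), and fell by 1.00 on the log2 scale, while a thymosin beta-4 gene (SMESG000025888.1) fell by 1.02 and a villin-like gene with gelsolin repeats (SMESG000015925.1) by 0.89.

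Lipid enzymes and lipid-binding proteins formed a list picked by words and domain names. It also matched genes of other kinds, such as the histone acetyltransferases KAT5 and KAT6B, choline O-acetyltransferase and serine protease 23. Its counts thus describe the list and not lipid proteins alone. Of its 43 genes 26 were lower and 17 higher, and the 40 outside the 61 genes had 23 lower and 17 higher (median -0.28). Of its 3 members among the 61 genes 1 is ANPEP, which was matched through the name of an unrelated domain. Gastric-type lipase LIPF (SMESG000014678.1) rose by 1.91 on the log2 scale, at a gfp(RNAi) mean of 1.00 CPM. OXCT1 (SMESG000080424.1), which activates ketone bodies and was set aside by the choice, fell by 1.53. The list of vesicle and membrane traffic genes had 24 of 28 lower and 4 higher (median -0.51). None of these 28 was among the 61, but the list did not match the member SCYL2, a pseudokinase of clathrin-coated vesicles. Endophilin B (ENDOB, SMESG000043769.1), set aside by the choice, fell by 1.62 on the log2 scale, the Rab effector MyRIP (SMESG000042371.1) by 1.02, and otoferlin (OTOF, SMESG000037807.1), a calcium sensor of vesicle fusion, by 0.90, with 171, 178 and 150 CPM in exoc3(RNAi) and 295, 306 and 295 CPM in gfp(RNAi). The list of exocyst subunits held only Smed-exoc3. All calls and log2 fold changes in these lists are from the edgeR fit over 14700 genes at an adjusted p under 0.05.

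The 3 exoc3(RNAi) libraries differed in how much Smed-exoc3 they retained, with 45.5%, 44.7% and 61.4% of the gfp(RNAi) mean in replicates 1, 2 and 3. The 61 genes did not show the same order. Their median share of the control level was 44.8%, 44.6% and 42.8% in these replicates. Replicate 3 was the lowest of its group in 34 of the 61 genes (55.7%, beside 46.1% of the 9157 genes) and the highest in 16 (26.2%, beside 35.4%). It was the lowest for all 5 genes of arginine use and for 6 of the 7 cytochromes P450 and other metabolic enzymes. With 3 libraries no relation between the targeted gene and the 61 genes was tested.

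**Figure D5:**
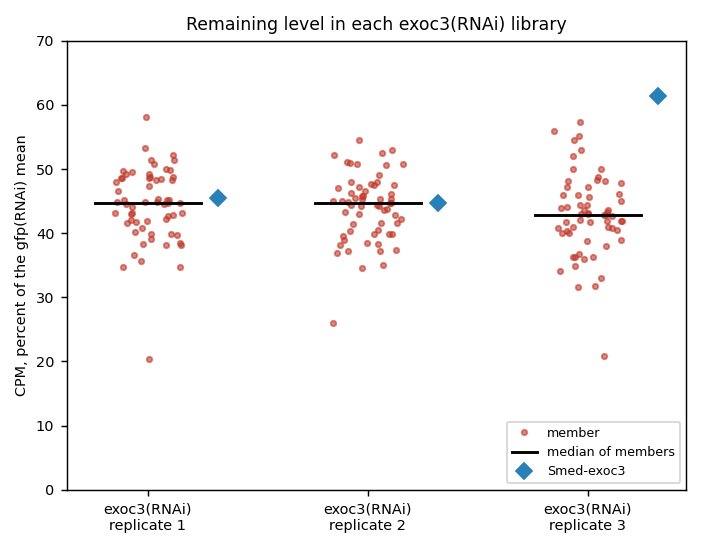
Share of the gfp(RNAi) mean that remained in each exoc3(RNAi) library for the 61 genes (points, with the median as a line) and for Smed-exoc3 (diamonds). Smed-exoc3 stands at 61.4% in replicate 3, where the median of the 61 genes is 42.8%.

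The 61 genes were also looked up in the stem cell lists that the study compared with these samples. None was among the 260 genes of its neoblast list, 1 was among the 115 of the Neoblast 1 list (the subtilase SMESG000074551.1) and 2 were among the 65 of the smedwi-1 high list (the kinase SMESG000026756.1 and MYO15A). These lists hold only genes that changed in these same samples and give no independent evidence, and the overlaps were not tested. The share of all changed genes in each list was not computed, so the counts cannot be called few or many.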

How the data were processed

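X1 cells gave 3 mRNA libraries each for exoc3(RNAi) and gfp(RNAi), with groups taken from the sample titles. The authors made stranded mRNA libraries, extracted reads with bcl2fastq 1.8.4, aligned them with STAR 2.7.2b to dd_Smes_g4 and assigned unique reads to genes on the reverse strand with featureCounts 1.6.5. The deposited values are raw counts for 30917 gene models, with no normalisation. The authors' own fold changes and p-values were not used. No pair of libraries of 1 group agreed within sampling noise (chi-square per degree of freedom 1.33 to 7.75).

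CPM were computed on library totals (28897363 to 37525894). SDs measure the spread between these libraries, and p-values set the group difference against edgeR's estimate of that spread. Counts were fitted with edgeR 4.0.16 in R 4.3.3 (filterByExpr with a minimum count of 10, leaving 14700 genes, TMM scaling, quasi-likelihood F test, Benjamini-Hochberg adjustment, two-sided). The step was tested on simulated counts in which few genes changed, up or down at random. Far more genes were called in these samples, so the simulation did not test the fit in that setting. DESeq2 1.42.0 and other settings were alternatives.

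The 61 genes and all lists were chosen with earlier results of these data known. Genes named are members with a name or domain, the 10 lowest shares, the 5 most abundant, the 3 nearest 50% on each side, up to 3 called genes per family outside the 61, those of shared name, and those lost when 1 library is left out. Coordinates and sequences of these genes were not analysed here. The list of kinases and other signalling genes is not reported here.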

Additional observations from a re-analysis of the deposited data

How the results depend on the processing

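Without one library at a time, 60 to 67 genes met the conditions, and 51 of the 61 did so in all 6 cases. The genes lost were SMESG000043853.1 and CPN1 without exoc3(RNAi) replicate 1, SMESG000009987.1, MAP3K19, SMESG000043853.1 and SMESG000058321.1 without replicate 2, NGEF, SMESG000009987.1, SMESG000055517.1, SMESG000061797.1 and CPN1 without replicate 3, PI16 and SMESG000043277.1 without gfp(RNAi) replicate 1, SMESG000009987.1, SMESG000043853.1 and CPN1 without gfp(RNAi) replicate 2, and SMESG000009987.1 without gfp(RNAi) replicate 3. A control minimum of 1 CPM gave 99 genes, a limit of 40% gave 13 and one of 60% gave 176, by construction. TMM-scaled CPM gave 78, the 61 included, a minimum of 10 CPM gave 48 and medians in place of means 67. The replicate numbers are not stated to mark pairs. No shared deviation of same-numbered libraries was seen (correlations -0.02, 0.02 and -0.02), which cannot show whether they were handled together. With the replicate block 3920 genes were called lower and 3722 higher, beside 3989 and 3795, and the median of the 61 genes was -1.22. With library totals it was -1.16, with a median shift of 0.05 over all genes, and 3463 genes were called lower and 4643 higher, so that lower genes made up 42.7% of calls, beside 51.2%. Over 10 alternative fits the 61 genes stayed called lower in every fit, as the choice on these same libraries all but fixed. Their log2 fold changes ran from -2.33 to -0.95 in these fits. DESeq2 called 3497 genes lower and 2830 higher. Without one library, 3550 to 4194 genes were called lower and 3092 to 3921 higher. The family counts stayed within 1.5 times of their values in all fits. With 41 reads at the lowest, depth limits most the genes near 5 CPM.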
